A study of Mus musculus with 4 samples.

Results

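Tstd1, Chp2 and Klk1 are 3 genes whose RNA was low in single epithelial cells of colonic organoids from Tnfr2-/- mice. They were chosen by name and selected on their epithelial levels in wildtype and Tnfr2-/- cultures, with and without tumor necrosis factor (TNF), so the difference between genotypes is described here without a test. Of 5663 genes measured between genotypes, 80 (1.41%) were at least 2-fold lower in Tnfr2-/- both with and without TNF, and 64 (1.13%) were higher. Organoids are epithelial cultures grown in a gel, here Matrigel, from pieces of the distal colon of mice that the labels give as 16 weeks old (the study's methods give another age). Wildtype and Tnfr2-/- organoids were each grown untreated or with TNF, which made 4 groups of 1 culture and 1 library. The treated cultures had TNF (20 ng/ml) in the medium between day 1 and day 6 of passage 5, and on day 7 every culture was harvested and depleted of apoptotic cells. Some fibroblasts of the tissue were carried along in the cultures, and the methods state that mice of both sexes were used. Tnfr2-/- mice lack TNF receptor 2, encoded by Tnfrsf1b, in the whole body, so every cell of those cultures carries the deletion. With 1 library per group there was no replicate, no difference between libraries could be tested, and every interval below covers counting error only. Sets of 4 values give the untreated and the TNF library of wildtype first, and then those of Tnfr2-/-.

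Tstd1 encodes a small sulfurtransferase with a rhodanese domain, an enzyme class that moves sulfur from thiosulfate to an acceptor and that takes part in the handling of the sulfide made by gut bacteria. Chp2 encodes a calcium-binding protein of the calcineurin B family that binds Na+/H+ exchangers at the plasma membrane, and it is known from the upper, absorptive part of the intestinal crypt. Klk1 encodes tissue kallikrein, a secreted serine protease that releases kinins from kininogens, and in the colon it is known from mucus-producing cells.

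The libraries held 2589, 1469, 1117 and 980 cells, of which 1128, 1163, 1023 and 858 fell in the 7 epithelial classes that the authors deposited and 1430, 306, 90 and 122 in 4 mesenchymal classes, while 35 cells had no class. The median epithelial cell held 30306 to 41057 unique molecular identifiers (UMIs, 1 for each captured RNA molecule), and 3 cell barcodes were shared between libraries. Summed epithelial markers (8 of 8 detected) stood at 12182 to 15212 CPM (UMIs per 1 000 000 UMIs of the same cells) in the epithelial cells, summed mesenchymal markers at 6.12 to 34.8 CPM and immune markers at 2.07 to 12.5 CPM. Tnfrsf1b itself was at 4.17, 12.1, 1.82 and 6.89 CPM, which checks little, since the 3' tags need not come from the deleted part of the gene.

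The members lie on chromosomes 1 and 7, and Tnfrsf1b lies on chromosome 4. Positions are GENCODE M21 on GRCm38, and all 3 genes are protein coding and on the plus strand. Tstd1 (ENSMUSG00000103711) spans chr1:171418872-171420352, and its coding transcript has 4 exons and 551 bases. Chp2 (ENSMUSG00000030865) spans chr7:122219496-122222824 with 7 exons and 1456 bases. Klk1 (ENSMUSG00000063903) spans chr7:44225360-44229618 with 5 exons and 954 bases, beside the related Klk1b genes. The 250 bases before the start of Chp2 and Klk1, from RefSeq (GRCm38.p6, plus strand, 5' to 3'), are shown because the genes were low together. Capitals mark a match to 1 of 8 motifs searched on both strands.
Chp2 (chr7:122219246-122219495): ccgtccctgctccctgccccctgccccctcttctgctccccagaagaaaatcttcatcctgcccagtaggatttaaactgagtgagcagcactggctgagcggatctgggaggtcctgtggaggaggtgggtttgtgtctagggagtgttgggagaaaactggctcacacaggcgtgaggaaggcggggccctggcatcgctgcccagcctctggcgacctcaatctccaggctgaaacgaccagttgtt
Klk1 (chr7:44225110-44225359): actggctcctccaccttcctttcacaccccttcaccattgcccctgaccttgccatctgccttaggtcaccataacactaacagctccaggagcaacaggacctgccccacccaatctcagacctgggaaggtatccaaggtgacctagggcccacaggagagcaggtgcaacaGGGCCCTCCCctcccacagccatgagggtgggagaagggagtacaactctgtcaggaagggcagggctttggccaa
The capitals in the Klk1 window match the letters searched for NF-kB, on the minus strand, at 76 bases before the start, and 17.6% of all 32851 windows of this length held such a match. Neither window held the TATA box letters TATAAA, which were in 12.4% of all windows, nor the GC box letters GGGCGG, which were in 32.7%. The same held for the E-box of USF, with letters CACGTG in 6.02% of windows, and for the GATA factors, with letters AGATAA in 9.99%. The letters TTTATG searched for CDX were in 10.8% of windows, TGANTCA for the AP-1 factors in 6.75% and GGAAAA for the NFAT factors in 20.4%, and neither window held them. The Tstd1 window (chr1:171418783-171419032, before the start that RefSeq gives) held TATAAA at 97 bases before that start and no other of the 8 motifs, so no motif was common to the 3 windows. The GENCODE start of Tstd1, 171418872, falls inside this window, so the TATAAA match lies within the gene as GENCODE places it. The window also lies within the annotated untranslated end of a long Usf1 transcript, and its bases are not printed. These are matches of letters and say nothing of binding.

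Over all epithelial cells, Tstd1 was counted 7511, 4644, 185 and 69 times in the 4 libraries. Its level was 149 CPM (95% Poisson interval 146 to 153) in wildtype untreated, 112 (109 to 116) in wildtype TNF, 3.65 (3.15 to 4.22) in Tnfr2-/- untreated and 1.73 (1.35 to 2.20) in Tnfr2-/- TNF. Both wildtype libraries were far above both Tnfr2-/- libraries, by 40.9 times (35.3 to 47.5) untreated and 64.7 times (51.1 to 83.3) with TNF. Chp2 was counted 2144, 984, 45 and 37 times. This gave 42.6 CPM (40.8 to 44.4), 23.8 (22.3 to 25.3), 0.888 (0.648 to 1.19) and 0.930 (0.655 to 1.28). Wildtype was higher by 47.9 times (35.7 to 65.9) untreated and by 25.6 times (18.4 to 36.5) with TNF, and fewer than 50 molecules of Chp2 stand behind each Tnfr2-/- level. Klk1 was counted 2147, 2281, 221 and 169 times. Its levels were 42.7 CPM (40.9 to 44.5), 55.2 (52.9 to 57.5), 4.36 (3.81 to 4.98) and 4.25 (3.63 to 4.94). The wildtype level was 9.78 times (8.51 to 11.3) and 13.0 times (11.1 to 15.3) that of Tnfr2-/-, so Klk1 kept more of its level than the other members.

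**Figure D1:**
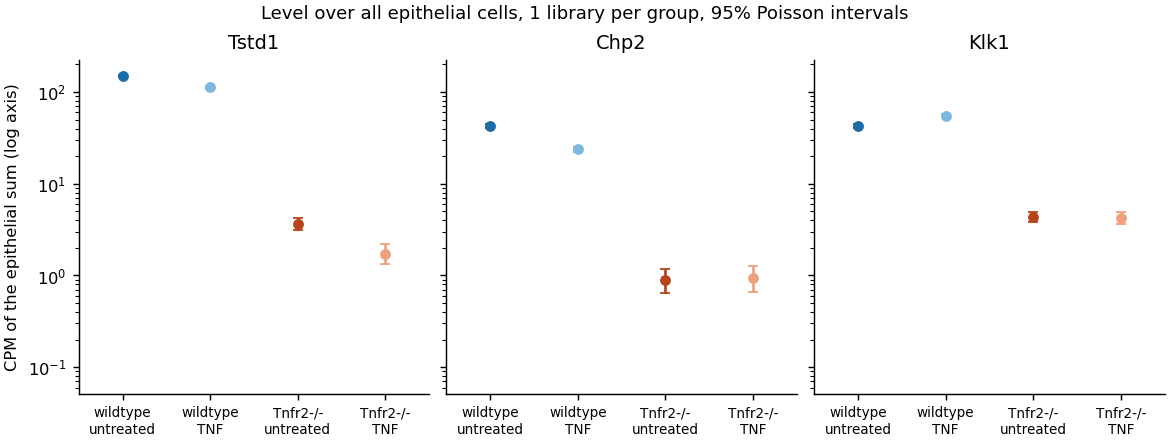
Level of each member in CPM (log axis) summed over all epithelial cells of the 4 libraries, 1 point per library with its 95% Poisson interval. For Tstd1, Chp2 and Klk1 alike the 2 wildtype points lie above the 2 Tnfr2-/- points, for Tstd1 at 149 and 112 against 3.65 and 1.73 CPM.

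A gene was counted as lower where log2 of (CPM + 1) was at least 1 below wildtype in both treatments and where it reached 20 CPM in 1 library of each pair. All 3 members are in this count, which held 80 of 5663 measured genes (1.41%, with 1.13% higher by the same rule), but the same contrast chose them and nothing is read from it. The differences, as log2 of (CPM + 1) in Tnfr2-/- minus wildtype, were -5.01 untreated and -5.37 with TNF for Tstd1, -4.53 and -3.68 for Chp2, and -3.03 and -3.42 for Klk1. The medians of all measured genes were 0.10 and -0.12. Ordered by the smaller of the 2 differences in size, the members took places 2, 3 and 5, after Xist in place 1, and Zg16, a goblet cell lectin, came before Klk1 with -3.30 as the smaller. Just after Klk1 came Adh1, an alcohol dehydrogenase, at -2.69, and Aqp8, a water channel of absorptive cells, at -2.51.

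The epithelial classes give each gene a different place. Tstd1 was broadly present in wildtype epithelium, with its highest class level in Absorptive cells at 230 CPM (223 to 238, 319 untreated cells). Among the other untreated wildtype classes it was at 155 (136 to 177) in Progenitor.3, 124 (111 to 137) in Secretory-Reg4-Spdef-Lyz1, 114 (110 to 118) in Progenitor.1, 37.5 (28.8 to 48.0) in Progenitor.2 and 25.9 (15.1 to 41.5) in Enteroendocrine cells. The intervals of Secretory-Reg4-Spdef-Lyz1 overlapped those of Progenitor.3 and of Progenitor.1, and those of Progenitor.2 and Enteroendocrine overlapped. With TNF the 19 wildtype Absorptive cells held 213 Tstd1 UMIs, and the classes of at least 20 cells held 134 CPM (128 to 141) in Progenitor.2, 105 (100 to 110) in Progenitor.1, 99.4 (85.0 to 116) in Progenitor.3, 94.1 (86.7 to 102) in Secretory-Reg4-Spdef-Lyz1 and 32.2 (21.4 to 46.5) in Enteroendocrine cells. Secretory-Reg4-Ang4, a class that only this library holds, had 3 Tstd1 UMIs in 246 shallow cells (median 1958 UMIs), a level of 5.89 CPM (1.21 to 17.2).

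The low Tstd1 level of Tnfr2-/- was seen within classes of at least 20 cells. The 11 Absorptive cells of untreated Tnfr2-/- were below that size and held 51 Tstd1 UMIs. Their level was 94.5 CPM (70.4 to 124) against 230 in untreated wildtype, a smaller gap than in the classes that follow. Progenitor.1, the class with the most untreated Tnfr2-/- cells, held 3.19 CPM (2.63 to 3.82, 647 cells) untreated and 1.37 (0.549 to 2.81, 95 cells) with TNF, which put wildtype at 35.8 times (29.8 to 43.4) and 76.9 times (37.3 to 192) these levels. Progenitor.2, the main class of Tnfr2-/- with TNF, held 1.61 (0.923 to 2.62, 233 cells) and 1.78 (1.36 to 2.29, 716 cells), with wildtype at 23.2 times (13.3 to 43.1) and 75.6 times (58.4 to 99.5). In untreated Tnfr2-/- cells, Progenitor.3 had no Tstd1 UMI (51 cells, a limit of 5.65 CPM), so wildtype was at least 27.5-fold higher there, and Secretory-Reg4-Spdef-Lyz1 had 1 UMI in 63 cells, so wildtype was 296 times as high with a wide interval (52.7 to 11710). Within Progenitor.1 alone, 37 of 5720 genes were lower in both pairs (0.647%), and within Progenitor.2, 99 of 5456 (1.81%). Tstd1 took place 2 by the smaller difference in each, with -4.78 and -5.49 in the former and -3.88 and -5.61 in the latter. The same contrast chose the members, and these classes hold most Tnfr2-/- epithelial cells, so nothing is read from the places.

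**Figure D2:**
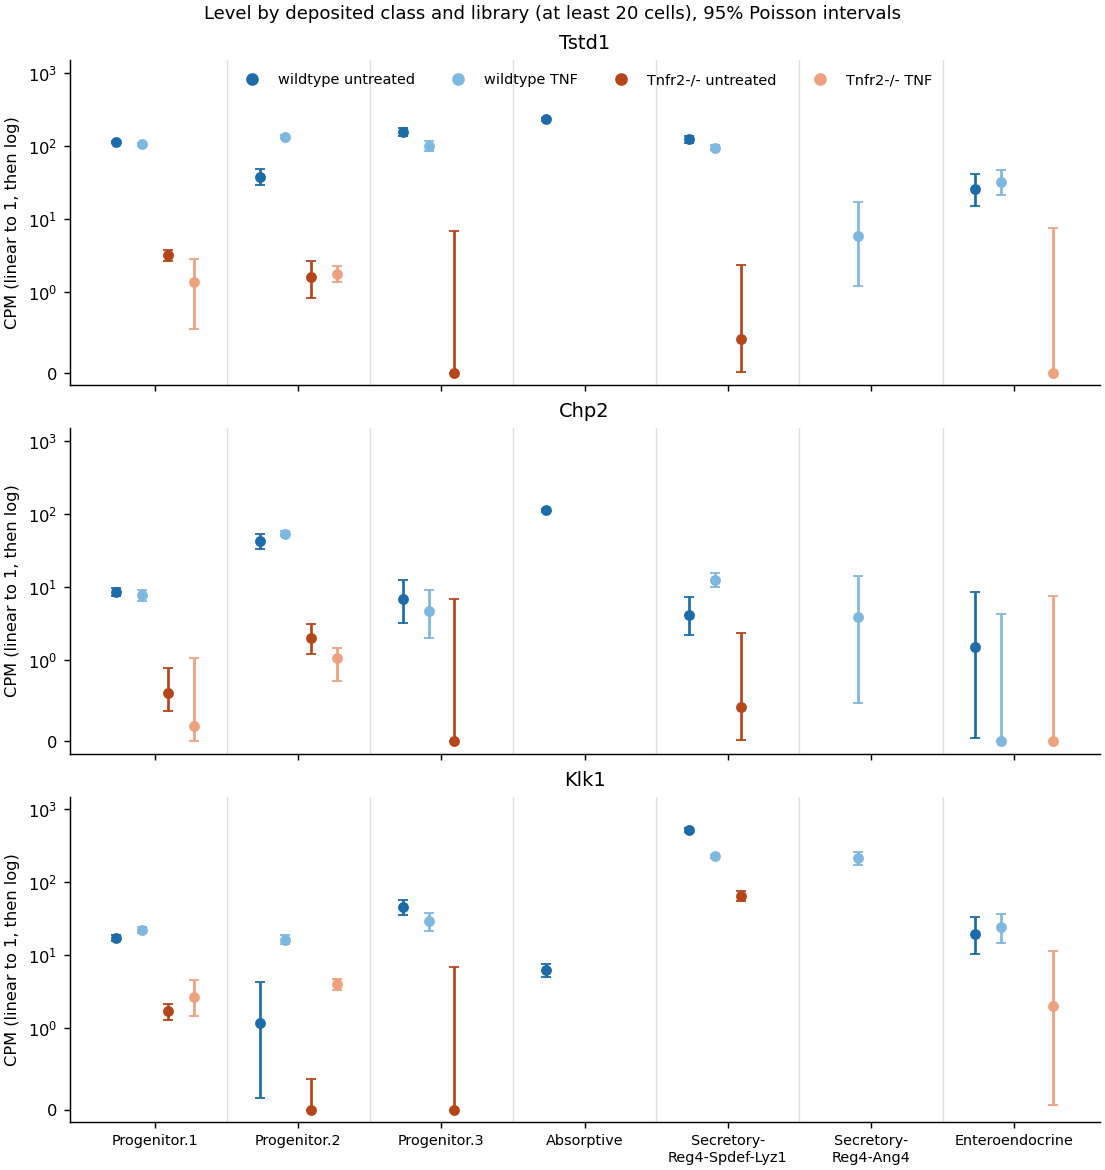
Level of each member in CPM (vertical axis linear up to 1 and logarithmic above) in the 7 deposited epithelial classes, 1 point per library with at least 20 cells in the class, with 95% Poisson intervals. Tstd1 is spread over the wildtype classes, Chp2 is highest in Absorptive cells at 113 CPM, and Klk1 is highest in Secretory-Reg4-Spdef-Lyz1 at 523 CPM.

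Chp2 was held by fewer classes. In untreated wildtype cells it was at 113 CPM (108 to 118) in Absorptive, 42.9 (33.6 to 54.0) in Progenitor.2, 8.58 (7.52 to 9.74) in Progenitor.1, 6.82 (3.27 to 12.5) in Progenitor.3, 4.23 (2.18 to 7.38) in Secretory-Reg4-Spdef-Lyz1 and 1.52 (0.0386 to 8.49) in Enteroendocrine cells. The first pair of classes stood apart from the rest, and the intervals of the last 4 overlapped in part. Absorptive cells carried 1812 of the 2144 epithelial Chp2 UMIs of this library. Such cells numbered 319, 19, 11 and 1 in the 4 libraries. Summed absorptive markers (8 of 8 detected in each) stood at 9808, 3373, 1055 and 1461 CPM of the epithelium. Like Chp2 this sum was higher in wildtype, but its markers need not move alike. Aqp8, 1 of the 8, was at -6.04 untreated and -2.51 with TNF, as log2 of (CPM + 1) in Tnfr2-/- minus wildtype. Chp2 was at -4.53 and -3.68, and the other markers are not given singly. The part of absorptive cells in the Chp2 level was not tested. In Progenitor.2, Chp2 was at 42.9, 54.1 (50.1 to 58.3), 2.02 (1.23 to 3.12) and 1.07 (0.747 to 1.48) CPM, with wildtype at 21.2 times (12.8 to 36.8) and 50.7 times (36.3 to 73.0) the Tnfr2-/- level. Chp2 took place 3 by the smaller difference of that class, from which nothing is read either. In Progenitor.1 it was at 8.58, 7.78 (6.55 to 9.16), 0.599 (0.375 to 0.907) and 0.195 (0.00494 to 1.09), below the 20 CPM asked of a measured gene. The 11 Absorptive cells of untreated Tnfr2-/- held 2 Chp2 UMIs, each in a different cell.

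Klk1 belonged to secretory cells. In Secretory-Reg4-Spdef-Lyz1 it was at 523 CPM (497 to 551, 73 cells) in wildtype untreated, 228 (216 to 240, 111 cells) in wildtype TNF and 65.7 (55.8 to 76.8, 63 cells) in Tnfr2-/- untreated, while Tnfr2-/- with TNF had 18 UMIs in 8 cells of the class. Untreated wildtype was thus 7.97 times (6.76 to 9.46) as high as untreated Tnfr2-/- within this class. In these libraries the summed goblet markers of the class were at 35852 and 38201 CPM, and its summed deep crypt secretory markers at 26698 and 21884. Single markers can differ from their sum. Zg16, on the goblet list, was at -3.30 untreated and -4.21 with TNF over all epithelial cells, as log2 of (CPM + 1) in Tnfr2-/- minus wildtype. Secretory-Reg4-Ang4 of wildtype TNF held 109 UMIs and 214 CPM (176 to 258), a level whose interval overlaps that of the other secretory class of its library. Other untreated wildtype classes were lower, at 45.7 (35.4 to 58.0) in Progenitor.3, 19.8 (10.6 to 33.9) in Enteroendocrine, 17.3 (15.8 to 18.9) in Progenitor.1, 6.29 (5.12 to 7.64) in Absorptive and 1.19 (0.144 to 4.30) in Progenitor.2 cells. The Tnfr2-/- progenitors were lower again. Progenitor.1 held 1.72 CPM (1.32 to 2.19) untreated and 2.73 (1.49 to 4.58) with TNF, and wildtype was 10.1 times (7.74 to 13.3) and 8.22 times (4.85 to 15.2) as high. In Progenitor.2 the untreated libraries could hardly be compared, with 2 UMIs in 1 wildtype cell and none in 233 Tnfr2-/- cells, and with TNF the levels were 16.4 (14.2 to 18.8) and 4.03 (3.38 to 4.77), a ratio of 4.07 (3.26 to 5.09).

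To compare shares of cells at equal depth, each cell was thinned at random to 5000 UMIs, which left out 43, 290, 33 and 12 shallower epithelial cells. A Tstd1 UMI was then found in 38.7% of epithelial cells (95% Clopper-Pearson interval 35.8 to 41.7) in wildtype untreated, 33.6% (30.4 to 36.8) in wildtype TNF, 1.92% (1.16 to 2.98) in Tnfr2-/- untreated and 0.709% (0.261 to 1.54) in Tnfr2-/- TNF. Without thinning the shares were 69.6%, 52.6%, 5.77% and 3.38%. Mesenchymal cells, which should lack the gene, gave 0.282% (0.0770 to 0.721, median 22705 UMIs before thinning) in wildtype untreated and 0 of 298 cells in wildtype TNF. The Tstd1 share of untreated Tnfr2-/- epithelium thus stood above the highest wildtype mesenchymal share, and that of Tnfr2-/- TNF overlapped it. The mesenchyme of the Tnfr2-/- libraries themselves had no Tstd1 UMI, also without thinning (limits of 1.38 CPM untreated and 0.629 with TNF). The epithelium of the same libraries was above these limits, at 3.65 CPM (3.15 to 4.22) and 1.73 (1.35 to 2.20). For Chp2 the thinned shares were 12.0% (10.1 to 14.1), 8.71% (6.92 to 10.8), 0.606% (0.223 to 1.31) and 0.355% (0.0732 to 1.03), and unthinned 29.3%, 20.0%, 2.74% and 3.03%. Both Tnfr2-/- values lay below the 1.91% (1.26 to 2.76) of untreated wildtype mesenchymal cells, while the mesenchyme of the Tnfr2-/- libraries themselves had a Chp2 UMI in 0 of 86 and 0 of 120 cells (limits of 3.49% and 2.50%). For Chp2 in Tnfr2-/- epithelium no difference from the mesenchyme of the same libraries could thus be seen at this depth. Those limits lie above the epithelial shares, so a difference of that size could not have shown. For Klk1 the thinned shares were 10.9% (9.09 to 12.9), 13.2% (11.0 to 15.6), 1.82% (1.08 to 2.86) and 2.25% (1.36 to 3.49), and unthinned 27.2%, 37.7%, 7.43% and 7.11%. The mesenchymal share of Klk1 was 0.353% (0.115 to 0.822) in wildtype untreated and 0.336% (0.00850 to 1.86) in wildtype TNF. Within Secretory-Reg4-Spdef-Lyz1 a Klk1 UMI was in 79.2% (68.0 to 87.8) of wildtype untreated, 51.9% (42.0 to 61.7) of wildtype TNF and 24.2% (14.2 to 36.7) of Tnfr2-/- untreated cells, the same order as that of the levels.

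**Figure D3:**
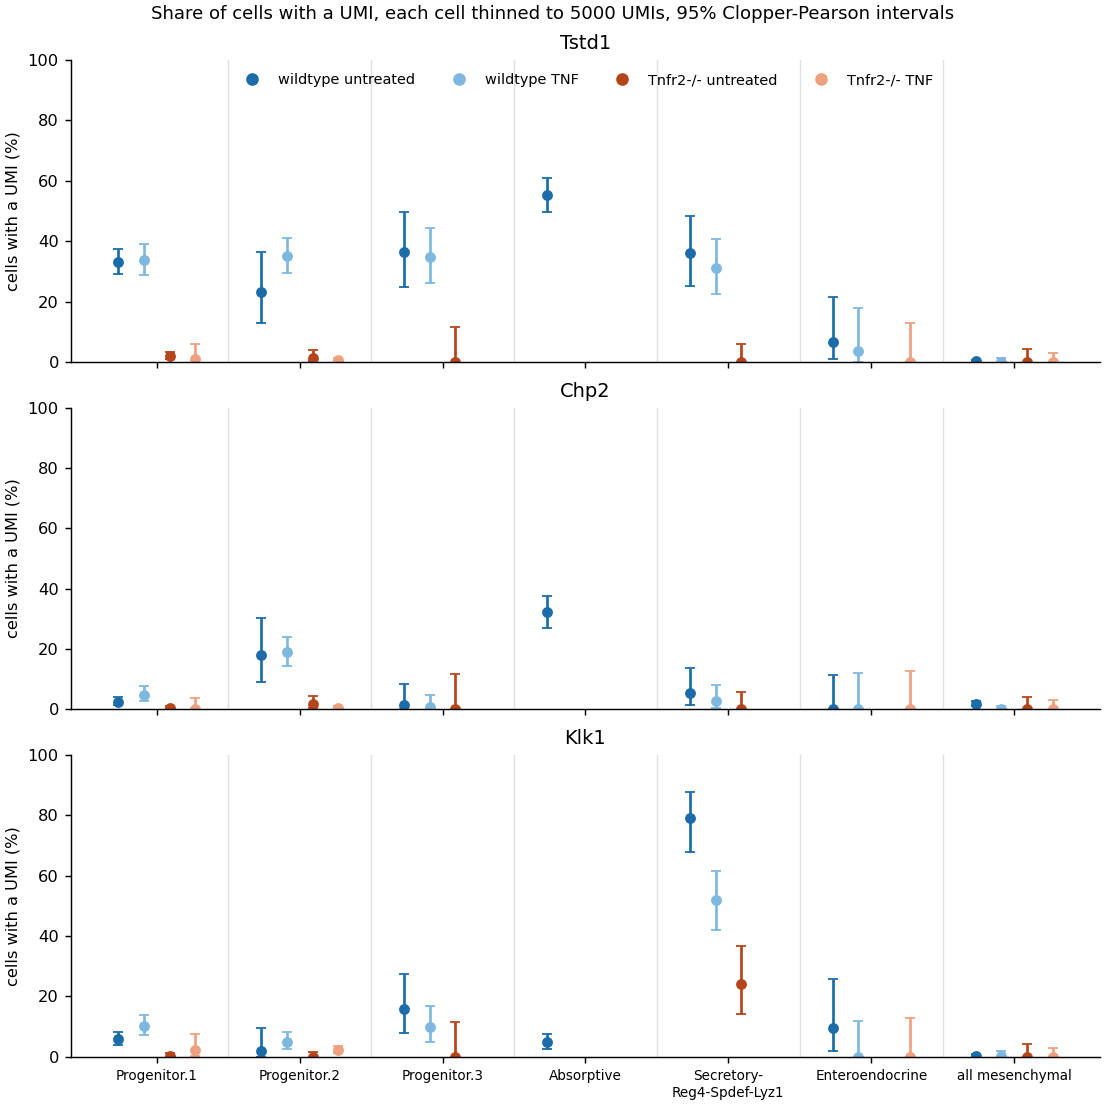
Share of cells (%) with at least 1 UMI of each member after thinning every cell to 5000 UMIs, by deposited epithelial class, and in all mesenchymal cells, per library, with 95% Clopper-Pearson intervals, where a class has at least 20 cells of that depth in a library (Secretory-Reg4-Ang4 has not). Absorptive cells of wildtype untreated reach 55.2% for Tstd1 and 32.2% for Chp2, Secretory-Reg4-Spdef-Lyz1 reaches 79.2% for Klk1, and all mesenchymal cells of a library, shown as 1 group, stay at or under 1.91%.

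Within wildtype cultures the members did not mark one set of cells. At equal depth, 50.8% (41.9 to 59.6) of untreated wildtype epithelial cells with a Chp2 UMI also had one of Tstd1, against 37.1% (34.0 to 40.2) of those without. With TNF the shares were 48.7% (37.0 to 60.4) and 32.1% (28.9 to 35.5). Inside the untreated Absorptive class this was not seen, with 52.0% (41.8 to 62.0) and 56.7% (49.8 to 63.5). Chp2 and Klk1 were seldom in the same cell, since 6 of 118 untreated cells with a Klk1 UMI also had Chp2 (5.08%, 1.89 to 10.7), against 12.8% (10.8 to 15.1) of those without, while with TNF the intervals overlapped at 6.09% (2.48 to 12.1) and 9.10% (7.15 to 11.4). The per-cell counts were uneven for Chp2 and Klk1. The tenth of untreated wildtype epithelial cells with the most UMIs of a gene held 44.4% of the Tstd1, 74.3% of the Chp2 and 86.9% of the Klk1 UMIs.

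The RNA that remained in Tnfr2-/- epithelium was not spread evenly over cells. Of the 185 Tstd1 UMIs of the untreated library, 145 were in 25 cells with 3 or more, 18 of them Progenitor.1 and 4 Absorptive cells. The 11 Absorptive cells of that library held 51 of the 185, as 19, 13, 11, 7 and 1 UMIs in 5 cells and none in the other 6, where 84.0% of the 319 untreated wildtype Absorptive cells had at least 1 UMI without thinning. With TNF, 46 of 69 Tstd1 UMIs were in 9 cells, 8 of them Progenitor.2. Klk1 had 159 of 221 UMIs in 23 cells untreated, of which 18 were Secretory-Reg4-Spdef-Lyz1, and 113 of 169 in 18 cells with TNF, of which 15 were Progenitor.2. Chp2 had 22 of 45 UMIs in 6 cells untreated and 10 of 37 in 3 cells with TNF. The cells left with Klk1 in untreated Tnfr2-/- thus lay mostly in the class that was highest in wildtype, which held 63 of the 1023 epithelial cells. Those left with Tstd1 lay mostly in the most numerous class of each library. That class held 647 of all 1023 epithelial cells untreated and 716 of 858 with TNF, so nothing is read from their number there. The Absorptive class, with 4 of the 25 untreated cells, held 11 of the 1023.

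TNF was the comparison that did not choose the members. Over wildtype epithelium the level with TNF was 0.752 times (0.725 to 0.781) the untreated level for Tstd1, 0.559 times (0.517 to 0.603) for Chp2 and 1.29 times (1.22 to 1.37) for Klk1. No member differed by 2-fold there. Of the 5545 genes that reached the minimum in both TNF pairs, which leaves out all 3 members, 0.541% were at least 2-fold lower in wildtype and 2.22% higher. The Tnfr2-/- ratios were 0.475 (0.355 to 0.629) for Tstd1, 1.05 (0.659 to 1.65) for Chp2 and 0.974 (0.792 to 1.20) for Klk1, from levels below the 20 CPM minimum. The wildtype values depended on which classes entered and on their weights. With the 5 classes of at least 20 cells in both wildtype libraries weighted equally, log2 of (CPM + 1) with TNF minus untreated was 0.03 for Tstd1, 0.29 for Chp2 and -0.91 for Klk1, where the pooled epithelium gave -0.41, -0.81 and 0.36. The same 5 classes with the weights of the untreated library gave -0.096, 0.064 and -0.58, so Tstd1 kept its sign there and the other two did not. Both versions leave out the Absorptive and Secretory-Reg4-Ang4 cells, so the choice of classes and the weights changed together. Class by class, Tstd1 with TNF was 3.58 times (2.79 to 4.68) its untreated level in Progenitor.2, 0.921 times (0.870 to 0.975) in Progenitor.1, 0.640 times (0.521 to 0.784) in Progenitor.3 and 0.761 times (0.666 to 0.870) in Secretory-Reg4-Spdef-Lyz1. The 62 untreated wildtype Progenitor.2 cells were shallow, with a median of 15575 UMIs against 39167 with TNF. Klk1 was 0.435 times (0.405 to 0.468) in Secretory-Reg4-Spdef-Lyz1 but 22.5 against 17.3 CPM in Progenitor.1 and 13.8 times (3.76 to 114) in Progenitor.2, where 2 untreated UMIs set the base.

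The genotype differences kept their direction when the make-up was held fixed. With the classes of at least 20 cells in both libraries weighted equally, 4 classes untreated and 3 with TNF, the differences were -5.56 and -5.48 for Tstd1, -3.24 and -3.93 for Chp2, and -3.05 and -2.48 for Klk1. With the weights of the wildtype library they were -4.93 and -5.54, -2.74 and -4.14, and -2.95 and -2.32. Absorptive cells, where Tstd1 and Chp2 were highest, could not enter either pair.

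Xist RNA coats the inactive X chromosome, and the genotypes differed in sex-linked RNA, whose part in the members' levels was not tested beyond the values here. Of Tnfr2-/- epithelial cells, 98.9% untreated and 99.0% with TNF had a UMI neither of Xist nor of the Y-linked genes Ddx3y, Eif2s3y, Kdm5d and Uty, while wildtype cultures held cells with Xist alone and cells with Y-linked UMIs alone. Within wildtype untreated, Tstd1 was at 148 CPM (144 to 151, 983 cells) in cells with Xist alone and 223 (202 to 246, 33 cells) in cells with Y-linked UMIs alone, and with TNF at 103 (99.1 to 106, 746 cells) and 152 (143 to 162, 137 cells). Chp2 was at 43.4 and 55.3 CPM untreated, and with TNF at 22.8 (21.2 to 24.5) and 34.8 (30.6 to 39.5). Both genes had the higher level in the cells with Y-linked UMIs alone, but for untreated Chp2 the intervals of the 2 sets of cells overlapped. Wildtype cells with neither were shallow (medians of 9133 and 2855 UMIs) and held 119 and 108 CPM of Tstd1 but 5.73 and 5.92 of Chp2. Klk1 was at 42.1 (40.2 to 44.0) and 5.96 (2.97 to 10.7) untreated, but at 44.5 (42.2 to 46.9) and 78.7 (72.2 to 85.6) with TNF, so the order differed between the libraries, and within Progenitor.1 it was at 18.2 and 6.22 untreated and at 22.1 and 20.0 with TNF. In Progenitor.1, Tstd1 was at 111 (107 to 116) and 182 (158 to 209, 18 cells) untreated and at 94.3 (89.3 to 99.5) and 141 (129 to 155) with TNF. Of the 25 untreated Tnfr2-/- cells with 3 or more Tstd1 UMIs, 1 had an Xist UMI, and 0 of 9 did with TNF.

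**Figure D4:**
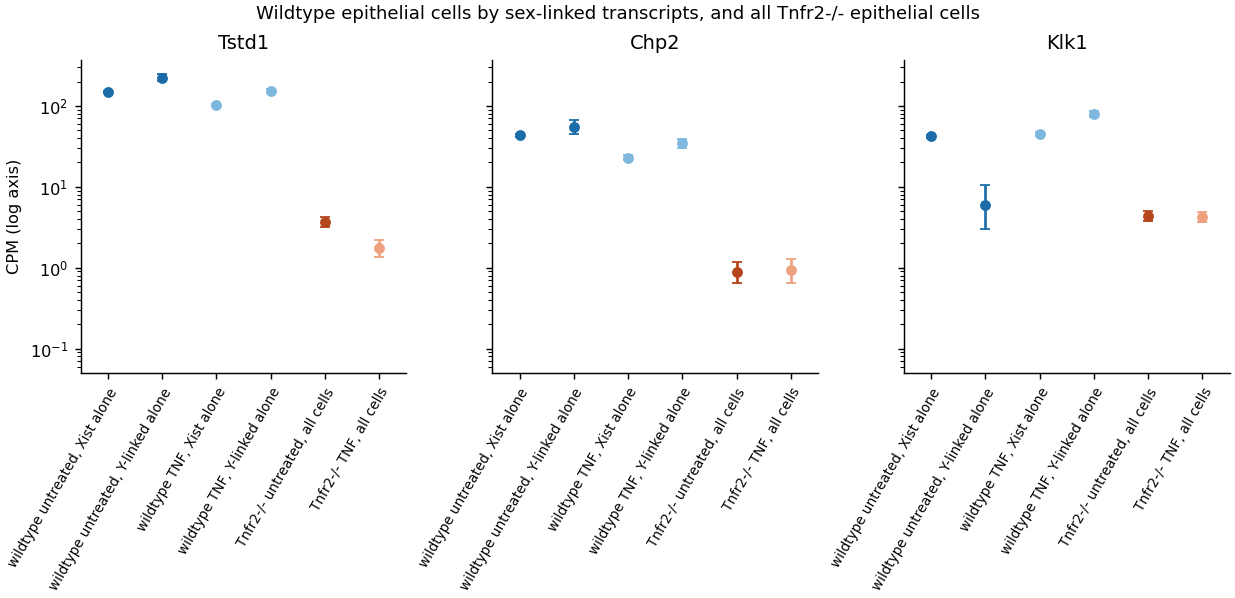
Level in CPM (log axis) of each member in wildtype epithelial cells with UMIs of Xist alone or of Y-linked genes alone, per library, beside all epithelial cells of the Tnfr2-/- libraries, with 95% Poisson intervals. Wildtype cells with Y-linked UMIs alone hold 223 and 152 CPM of Tstd1, above the 3.65 and 1.73 CPM of Tnfr2-/-, and Klk1 in those of wildtype untreated is at 5.96 CPM, near the 4.36 CPM of untreated Tnfr2-/-.

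In the mesenchymal cells of the cultures the members were low but not in the epithelial proportion. Untreated wildtype mesenchyme held 50 UMIs of Tstd1 (1.44 CPM), 184 of Chp2 (5.29) and 22 of Klk1 (0.632), so that Chp2 was the more often counted, where the epithelium of that library held 7511 UMIs of Tstd1 and 2144 of Chp2. Mesenchyme-Ifitm1 carried 146 of these Chp2 UMIs, at 6.84 CPM. Krt8, a keratin of epithelial cells, was at 51.6 CPM in the mesenchyme and 4702 in the epithelium. With TNF the wildtype mesenchyme held 9, 8 and 6 UMIs of Tstd1, Chp2 and Klk1. The Tnfr2-/- mesenchyme, with 90 and 122 cells, had no Tstd1 or Klk1 UMI, which allows up to 1.38 and 0.629 CPM, and 5 and 1 of Chp2.

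Of the 5 protein-coding genes on each side, 3 of 10 were measured beside Tstd1, 5 of 10 beside Chp2 and none of 10 beside Klk1. Of these 8, 0 were lower or higher in both pairs. By the same rule 1.41% of all measured genes were lower and 1.13% higher, so nothing is read from a count over so few genes. Usf1, a transcription factor gene that overlaps the start of Tstd1 on the same strand, was at 14.2, 15.9, 13.6 and 13.4 CPM. F11r, the junctional adhesion molecule gene on its other side, was at 143, 183, 155 and 322 CPM, and Pfdn2, a prefoldin subunit, at 142, 135, 162 and 109. Itln1, an intelectin of intestinal secretory cells, was at 7.23, 21.1, 22.6 and 11.7. Beside Chp2, Ndufab1, a mitochondrial acyl carrier protein, was at 547, 410, 430 and 245 CPM, Dctn5 at 24.8, 24.3, 21.8 and 22.1, and Plk1, a mitotic kinase, at 25.8, 22.0, 40.9 and 9.91. Rbbp6 was at 77.8, 96.8, 98.5 and 101, and Tnrc6a at 34.0, 40.0, 56.8 and 44.9. Ern2, the gene just before Chp2 and known from mucus-producing cells, was at 10.5, 20.2, 9.12 and 3.57 and stayed under the minimum in the untreated pair.

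**Figure D5:**
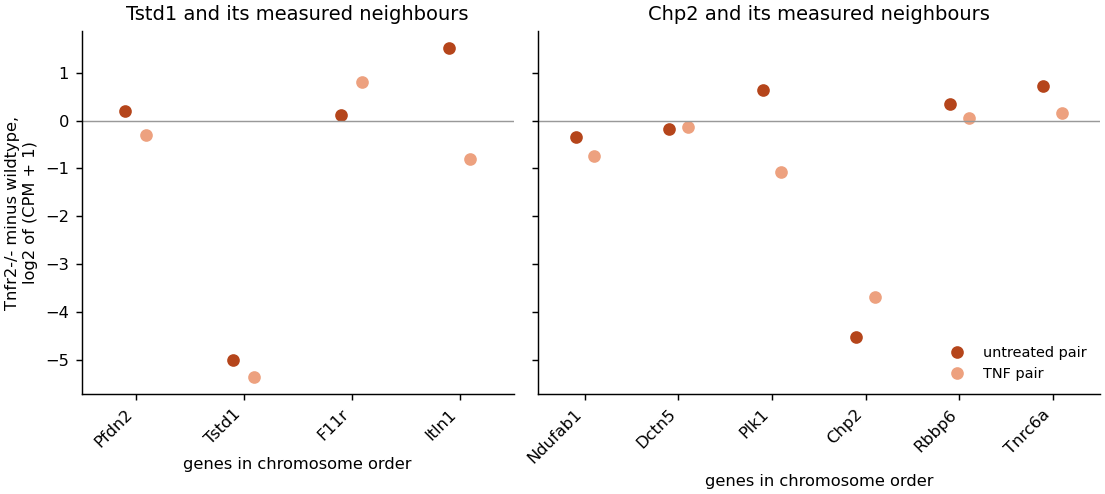
Difference in log2 of (CPM + 1), Tnfr2-/- minus wildtype, for Tstd1, Chp2 and their measured neighbours in chromosome order, 1 point for the untreated and 1 for the TNF pair. Tstd1 (-5.01 and -5.37) and Chp2 (-4.53 and -3.68) stand below neighbours that lie between -1.08 and 1.52.

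Genes of the members' pathways came from lists written with earlier results of these data known. Of 11 enzymes of sulfide and thiosulfate, 5 were measured and 1 was lower in both pairs, where 1.41% of all measured genes were, with medians of -0.77 and -0.48 against 0.10 and -0.12 for all genes. That gene was Ethe1, a mitochondrial persulfide dioxygenase, at 217, 136, 41.8 and 37.8 CPM. Sqor, which oxidises sulfide, was at 222, 163, 154 and 150 CPM, and Tst, the mitochondrial rhodanese, at 146, 86.7, 85.2 and 50.6. Mpst, a mercaptopyruvate sulfurtransferase, was at 62.4, 55.7, 41.9 and 39.6, and Selenbp1, a methanethiol oxidase, at 109, 74.0, 40.0 and 147. The relatives Tstd2, at 12.4, 12.3, 12.8 and 12.7, and Tstd3, at 15.2, 7.45, 5.63 and 4.93, were below the minimum, so the level of Tstd2 was close to even over the 4 libraries.

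Of 14 Na+/H+ exchangers and partners, 2 were measured and 0 were lower or higher in both pairs. That is too few genes to read against the 1.41% lower and 1.13% higher of all measured genes. Chp1, the close relative of Chp2, was at 68.1, 79.5, 69.8 and 139 CPM, and Slc9a3r1, a scaffold of the brush border, at 108, 73.9, 78.1 and 98.4. Slc9a3, the exchanger of the absorptive brush border, was at 0.636, 0.411, 0.158 and 0.176. Of 10 genes of calcineurin and NFAT, 3 were measured and 0 passed, again too few to read against those shares. Ppp3ca was at 56.4, 69.9, 63.6 and 80.9, Ppp3r1 at 36.9, 37.8, 42.6 and 50.7 and Ppp3cb at 30.7, 37.3, 40.7 and 33.8 CPM. These are subunits of calcineurin, and none was lower or higher by 2-fold.

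Klk1 stood alone in its family. Of 25 other kallikrein genes none reached 20 CPM in any library, and 8 had no UMI in the epithelium. Klk6 had the highest values among them, at 4.07, 0.750, 2.23 and 2.72 CPM, followed by Klk7 at 0, 0, 1.38 and 3.37 and Klk8 at 0.517, 0.387, 1.22 and 2.14. The last 300 bases of the Klk1 transcript, where 3' reads come from, were 80.0% to 93.7% identical to the 13 coding Klk1b transcripts, most to Klk1b5, which shares 88 of 276 stretches of 25 bases. Reads from such stretches fit more than 1 gene, and how they were counted is not given in the sources used here. Klk1b5 itself was at 0.0596, 0.0484, 0.0197 and 0 CPM. Of 14 genes of the kinin pathway and the epithelial sodium channel (ENaC), a channel that secreted proteases cleave, 2 were measured and 0 passed. Of all measured genes 1.41% were lower and 1.13% higher, so this count is not read. The measured genes were the protease inhibitors Spint2, at 1155, 1314, 702 and 875 CPM, and Spint1, at 138, 136, 123 and 191. Of the channel subunits, Scnn1a was at 17.6, 13.9, 6.00 and 7.47 CPM. The kininogen genes, substrates of the enzyme, had 1 UMI of Kng1 and none of Kng2 in these cells.

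Likeness was measured as Pearson's r of log2 of (CPM + 1) over the 19 class and library sums with at least 20 cells, a description over 8941 genes in which sums of 1 library share its culture and depth. Most like Tstd1 were Gstt2 (0.87), a glutathione transferase, Xist (0.86), Gm5485 (0.86), Kxd1 (0.83) and Lamtor3 (0.83). Gstt2 was at 19.6, 25.6, 2.43 and 2.09 CPM over the epithelium, and Gm5485 at 318, 168, 23.5 and 48.1. Most like Chp2 were Gm3054 (0.92), Chmp6 (0.91), Cmbl (0.90), Ethe1 (0.90) and Pmp22 (0.90), of which Ethe1 was also on the list of sulfide enzymes. Most like Klk1 were Sval1 (0.90), Fam114a1 (0.87), D630039A03Rik (0.87), Ccl6 (0.86) and Cgref1 (0.86). Between members r was 0.75 for Tstd1 and Chp2, 0.50 for Tstd1 and Klk1 and 0.17 for Chp2 and Klk1. Over the 12 wildtype sums alone, a choice made after the values were seen, these were 0.49, -0.14 and -0.44. The members were chosen for low levels in Tnfr2-/-, which by itself raises r over all sums, so nothing is read from the lower values in wildtype. In wildtype, Tstd1 was most like Thap4 (0.94) and 1700025G04Rik (0.94), of which the latter was at 18.6, 22.2, 2.15 and 1.91 CPM over the epithelium. Klk1 was most like Sval1 (0.97), Tff3 (0.97), Fcgbp (0.96), Reg4 (0.95) and Spdef (0.95), genes of goblet and deep crypt secretory cells, and Chp2 was most like Ces2c (0.97), Gsta1 (0.97), Pmp22 (0.97), Tango2 (0.97) and Tmem253 (0.96).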

How the data were processed

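Single cells of 4 organoid cultures were profiled by 3' RNA sequencing with UMIs. Per the submitters' processing notes, the authors used Cell Ranger 5.0.0 with mm10, and per the study's methods they removed cells under 100 UMIs and doublets of epithelial and mesenchymal cells and named the classes by hand. The authors deposited raw UMI counts per gene and cell with the class of each cell, and 3 other columns of cell values were not used. No further cell filter and no doublet caller were applied here. Counts were summed per library and class and divided by the total (CPM). Exact Poisson intervals were given for levels, conditional binomial intervals for ratios and Clopper-Pearson intervals for shares, all at 95%, and 0 counts were given the limit of 3 counts. Class sums of under 20 cells were given as counts, and for Tstd1 in Absorptive cells of untreated Tnfr2-/- also as a level. Differences were taken as log2(CPM + 1). Cells were thinned to 5000 UMIs for shares. With 1 library per group no test was made, and the code that counts genes was tested on simulated data.

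The members and lists were chosen with earlier results of these data known. Besides the members, the text names the genes just before and after them in the ranking, the 5 neighbours on each side that were measured, the 5 genes most like each member and, of each list, the genes called and the 3 with the highest mean level. Tst, Mpst, Tstd2, Tstd3, Slc9a3, Scnn1a, Kng1, Kng2 and Ern2 were added after their values were seen. Python 3.11.15 with numpy 2.4.6, pandas 2.3.3, scipy 1.17.1 and matplotlib 3.10.9 was used, and R 4.3.3 with edgeR 4.0.16 and DESeq2 1.42.0 gave the alternative scaling factors. Other alternatives were pseudocounts of 0.1 and 10, cells of at least 5000 UMIs, the mean over cells, equal weights for classes, no minimum level, and thinning to 2000 UMIs or none.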

Additional observations from a re-analysis of the deposited data

Results flagged for a closer look

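Cells to which the authors gave no class entered no comparison above. The 31 such cells of wildtype untreated held all 3 genes, with Tstd1 at 86.3 CPM (74.2 to 99.8), Chp2 at 29.1 (22.2 to 37.3) and Klk1 at 34.3 (26.9 to 43.2). These cells held summed epithelial markers at 8927 CPM and summed mesenchymal markers at 4838 CPM, with a median of 66566 UMIs. The epithelial cells of that library had 18.2 CPM of mesenchymal markers and a median of 37246 UMIs. Whether the cells without a class are doublets was not tested. The 4 cells without a class in untreated Tnfr2-/- had no UMI of any of the 3 genes, which allows up to 3 counts.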

How the results depend on the processing

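No paired analysis was possible because each group has 1 library, and for the same reason none could be left out. The genotype differences of all 3 genes stayed negative under each of the 7 alternatives run. With a pseudocount of 0.1 they were, untreated and with TNF, -5.31 and -5.94 for Tstd1, -5.43 and -4.54 for Chp2 and -3.26 and -3.67 for Klk1, and with 10 they were -3.54 and -3.38, -2.27 and -1.63, and -1.87 and -2.19. With classes weighted equally, Tstd1 (-5.56) and Chp2 (-3.24) moved untreated and Klk1 (-2.48) with TNF. As a mean over cells the TNF values were -4.90 for Tstd1, -3.14 for Chp2 and -3.76 for Klk1. The wildtype TNF differences reversed with classes weighted equally, to 0.027 for Tstd1, 0.29 for Chp2 and -0.91 for Klk1. They moved to -0.65, -1.13 and 0.81 as a mean over cells, to -0.50 for Tstd1 and 0.27 for Klk1 with TMM, to -0.51 and 0.27 with median-of-ratios factors, and to -0.64 for Chp2 with a pseudocount of 10. In Tnfr2-/- the TNF difference was -0.22 for Tstd1 with a pseudocount of 10 and 1.24 for Klk1 with classes weighted equally. The causes were not tested. TMM moved the medians of all genes to 0.00 untreated and 0.04 with TNF.

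The 80 genes lower in both pairs, beside 64 higher, became 261 beside 204 without a minimum level, 60 beside 27 with classes weighted equally and 73 beside 77 as a mean over cells, and 54 to 88 were lower under the other alternatives. Chp2 was not in the count in those with equal weights or a mean over cells, since it missed the 20 CPM minimum there. Its differences, untreated and with TNF, were still -3.24 and -3.93 with equal weights and -4.42 and -3.14 as a mean over cells.

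Shares of cells followed depth. Thinned to 2000 UMIs they were 19.8%, 14.8%, 0.494% and 0.117% for Tstd1, 7.24%, 4.49%, 0% and 0.117% for Chp2, and 6.34%, 8.98%, 1.18% and 1.05% for Klk1. Without thinning they were 69.6%, 52.6%, 5.77% and 3.38% for Tstd1, 29.3%, 20.0%, 2.74% and 3.03% for Chp2, and 27.2%, 37.7%, 7.43% and 7.11% for Klk1. Each group was 1 culture and 1 library. A difference by genotype or by treatment thus cannot be told apart from one of culture, library or sex of the mice.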
